A study of Mus musculus with 9 samples.

Results

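The genes described here encode adhesion molecules of the neuronal surface and the synapse, measured in 9 single cells of the mouse hypothalamus. They were chosen by symbol alone: the neurexins, neuroligins, contactins and contactin-associated proteins, the SynCAMs (Cadm genes), the NCAMs, the L1 family, the LRRTMs, the Slitrks, the IgLONs, the teneurins, the cadherins named Cdh with a digit other than Cdh5, and every symbol that starts with Lrrc4. This took 80 of the 23530 gene symbols of the table. Of these, 9 are Lrrc40 to Lrrc49 (Lrrc44 is not among them), leucine-rich repeat genes that share the prefix with the netrin-G ligands Lrrc4, Lrrc4b and Lrrc4c but are not known as synaptic adhesion genes. They were kept as members and are given apart. The remaining 71 are adhesion genes by name.

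The cells came from the region of the paraventricular nucleus of C57Bl6/N mice aged 21 to 28 days, and all 9 have the same label, single secretagogin+ cell. There is no second group and no control, and the labels give no genotype or treatment. The labels tie none of the cells to an animal, which makes the 9 cells 1 sample without replicates, and no test of a difference was made. Each cell is called by the number in its label.

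Adhesion molecules hold the faces of a synapse together and help to set its kind. Neurexins sit mainly on the presynaptic side and bind neuroligins, LRRTMs and other partners across the cleft, while SynCAMs, NCAMs and IgLONs bind each other through immunoglobulin domains on both sides. Contactins and IgLONs are held in the membrane by a lipid anchor, and neurofascin and NrCAM help to organise the axon initial segment and the node of Ranvier. In the hypothalamus, NCAM with its polysialic acid chains is known from the magnocellular neurons of the paraventricular and supraoptic nuclei.

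Values are molecules, the authors' deposited whole-number counts, or levels, which are molecules per 10000 gene molecules of the same cell. The cells held 1021 to 26466 gene molecules, the lowest in cell 1 and the next lowest, 3393, in cell 6. A count of 0 was given a limit of 3 molecules, which is 29.4 per 10000 in cell 1, 8.84 in cell 6 and 1.13 in cell 5. Intervals are exact 95% intervals, Poisson for counts and Clopper-Pearson for shares, and cover counting error only. Scgn, the gene of the label, had at least 1 molecule in 5 of the 9 cells. Neuron markers ranged from 1 molecule in cell 1 to 222 in cell 5, with a median of 16. Several cells also carried markers of other cell types: 442 oligodendrocyte-marker molecules in cell 5, 121 ependymal and 29 astrocyte molecules in cell 8, 136 endothelial and 2507 blood molecules in cell 4, and 70 endothelial molecules in cell 7. No microglial marker had a molecule, and the neuron markers were detected with 10 of 10 genes in at least 1 cell.

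The RefSeq promoter table (GRCm38.p6) gives a start for 59 of the 80 genes, and the start furthest 5′ was used where it lists several. The 4 promoters shown belong to the genes with values in every cell below whose RefSeq start lay within 100 bases of the GENCODE gene start: Negr1 (chr3:156561644-156561793, plus strand), Lrrtm3 (chr10:64090256-64090405, minus strand), Cadm3 (chr1:173367696-173367845, minus strand) and Cntn1 (chr15:92051015-92051164, plus strand). They are shown because the density of CpG differed between promoters of broadly detected and of undetected symbols in this table. Each line is the 150 bases before the start, 5′ to 3′, with CG dinucleotides in capitals.
Negr1: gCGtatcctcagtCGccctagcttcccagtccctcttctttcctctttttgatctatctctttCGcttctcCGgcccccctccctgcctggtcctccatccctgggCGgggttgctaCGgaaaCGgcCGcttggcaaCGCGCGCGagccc
Lrrtm3: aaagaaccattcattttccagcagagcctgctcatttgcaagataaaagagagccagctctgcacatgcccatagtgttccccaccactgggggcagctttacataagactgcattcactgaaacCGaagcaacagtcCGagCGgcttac
Cadm3: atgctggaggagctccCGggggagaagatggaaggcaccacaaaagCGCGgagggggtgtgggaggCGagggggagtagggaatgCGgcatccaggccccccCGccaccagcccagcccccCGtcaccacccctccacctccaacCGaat
Cntn1: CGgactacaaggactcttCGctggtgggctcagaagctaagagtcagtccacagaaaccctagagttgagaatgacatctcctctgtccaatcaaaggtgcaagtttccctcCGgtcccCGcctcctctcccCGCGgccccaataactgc
The Negr1 stretch holds 12 CG, Cadm3 holds 8, Cntn1 holds 6 and Lrrtm3 holds 3. Over the whole 300-base window, from 250 bases before to 50 after the start, the ratio of observed to expected CpG was 0.881 for Negr1, 0.563 for Lrrtm3, 0.517 for Cadm3 and 0.402 for Cntn1. For all symbols detected in at least 5 cells whose RefSeq and GENCODE starts lay that close, the median ratio was 0.822 (870 promoters), and for symbols with no molecule it was 0.344 (6557 promoters). The median was 0.592 over the 33 such promoters of the adhesion genes, near the 0.566 over all 14327 such promoters. Of the 11 adhesion genes in at least 5 cells only 3 had such a start, so no comparison within the set was made. TATAAA in the 40 bases before the start, searched on both strands, was found in none of the 59 promoters of the set and in 3.28% of all 27025 promoters.

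Most adhesion genes were detected somewhere, few of them broadly, and many at single molecules. Of the 80, 55 had at least 1 molecule in at least 1 cell (68.8%, against 41.4% of all 23530 symbols). In at least 5 of the 9 cells, 11 were detected (13.8%, against 7.00% of all symbols). Another 44 were detected in 1 to 4 cells, 15 of them in a single cell, and 25 had no molecule. The median adhesion gene had 2 molecules over all cells, where the median of all symbols was 0. Together the 80 genes had 438 of the 91370 gene molecules, or 47.9 per 10000. Of the 167 entries above 0 in the matrix of genes by cells, 82 (49.1%) were 1 molecule and 23 were 5 or more. At 2 or more molecules, 4 of the 80 were detected in at least 5 cells (5.00%, against 2.63% of all symbols), among them Ncam1, Cadm1 and Ntm. These shares describe the 9 cells, and detection in 5 of 9 cells has an interval of 21.2 to 86.3%.

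**Figure D1:**
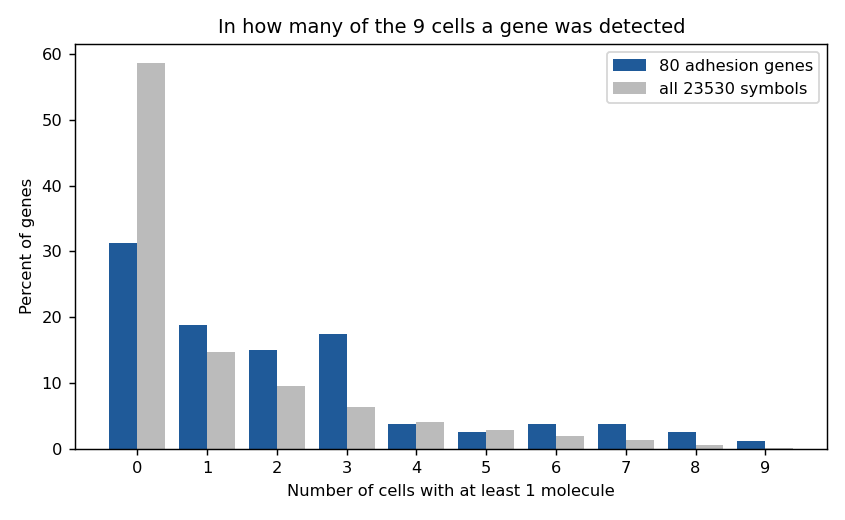
The horizontal axis is the number of the 9 cells in which a gene had at least 1 molecule, and the vertical axis is the percent of genes, for the 80 chosen genes (dark bars) and all 23530 symbols (grey bars). Of the chosen genes 31.2% were in no cell, against 58.6% of all symbols, and 1.25% were in all 9 cells, against 0.196%.

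Of the cadherins, the largest family with 22 of the 80 genes, 15 had no molecule. Over the whole set 25 genes (31.2% of the 80) had no molecule, where the share among all symbols was 58.6%. The 25 genes were Cdh1, Cdh3, Cdh6, Cdh9, Cdh11, Cdh12, Cdh15, Cdh16, Cdh17, Cdh19, Cdh20, Cdh22, Cdh23, Cdh24 and Cdh26, with Cntn3, Cntn5, Cntnap5a, Cntnap5c, Lrrtm4, Slitrk3, Slitrk5, Tenm2, Lrrc43 and Lrrc47. In the shallow cells 1 and 6 a gene at 0 could still have been present below the limits given above. The broadly detected genes (5 cells or more) spanned a median of 297 kb of the genome, those in 1 to 4 cells 165 kb, and those in none 123 kb. All protein-coding symbols matched to GENCODE had a median of 18.3 kb, and 21.7 kb for the 1531 detected in at least 5 cells.

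The summed level of the adhesion genes differed among cells by more than counting error. It was 137 per 10000 in cell 1 (interval 75.2 to 229, from 14 molecules), 67.9 in cell 2 (52.4 to 86.5), 51.3 in cell 3 (38.6 to 66.7), 9.15 in cell 4 (4.57 to 16.4), 45.7 in cell 5 (38.0 to 54.6), 82.5 in cell 6 (54.9 to 119), 57.3 in cell 7 (41.1 to 77.6), 25.8 in cell 8 (17.9 to 36.0) and 88.2 in cell 9 (68.7 to 111). Cells 4 and 8 were the lowest, and the interval of cell 4 overlapped that of no other cell. Cell 4 held 11 adhesion molecules among 12024 gene molecules, with 30.3% of its total at blood-marker loci (all loci counted) and 22.6% at mitochondrial genes. Leaving both out of every total, its level was 19.4 per 10000, against 30.9 in cell 8 and 49.3 to 171 in the others. No intervals are given for these levels, so whether cell 4 lies apart from cell 8 there is not known. Its neuron-marker molecules were 7 against 136 of endothelial markers, and in cell 8 they were 16 against 121 of ependymal markers. What part these other markers have in the low levels was not tested. Cell 9, the only cell on lane 4, had 614 spike-in molecules against 1962 to 2184 in the rest, and lane and cell cannot be told apart.

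**Figure D2:**
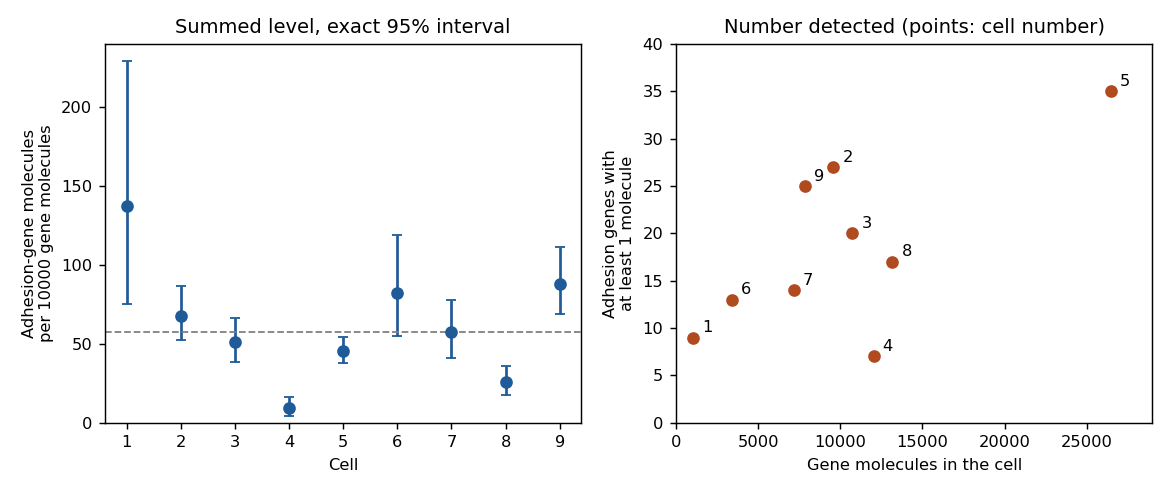
On the left, the summed adhesion-gene level of each cell in molecules per 10000 gene molecules, with exact 95% intervals and the median over cells, 57.3, as a dashed line. On the right, the number of adhesion genes with at least 1 molecule against the gene molecules of the cell. Cell 4 is lowest in both panels, at 9.15 per 10000 and 7 genes, although only cells 5 and 8 are deeper.

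The number of adhesion genes detected ran from 7 in cell 4 and 9 in cell 1 to 27 in cell 2 and 35 in cell 5. Cells 3, 6, 7, 8 and 9 had 20, 13, 14, 17 and 25. The deepest cell thus held the most genes, and cells 4 and 8, which followed it in depth, held fewer than the shallower cells 2, 3 and 9. When every cell was thinned to 3393 gene molecules, leaving out cell 1, the expected number detected in cells 2 to 9 was 14.7, 10.5, 2.67, 10.6, 13.0, 9.38, 6.85 and 16.4. At equal depth cell 5 was therefore in the middle of the order, and cells 2 and 9 at the top.

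**Figure D3:**
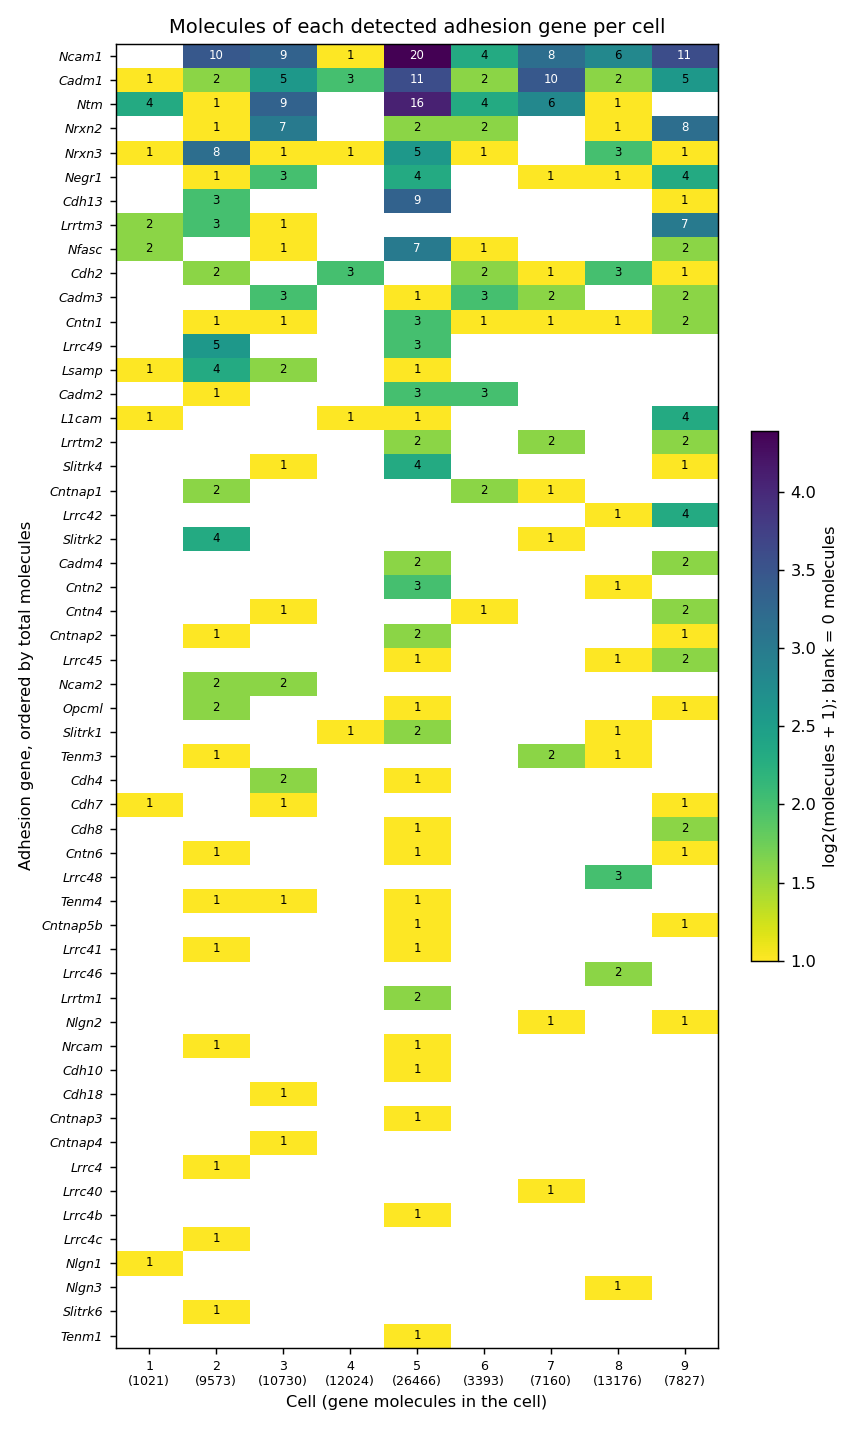
The rows are 54 of the 55 detected genes in order of total molecules, Lrrc40 to Lrrc49 included, and each column a cell with its gene molecules in brackets. Colour gives log2(molecules + 1), the number gives the molecules, and blank is 0. Cadm1 fills all 9 columns, while the lower rows hold isolated single molecules.

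The NCAMs had 73 molecules, 20 of them in cell 5, and Ncam1 gave 69 of the 73. Ncam1 encodes the neural cell adhesion molecule, which binds itself between cells and carries polysialic acid, and spans 49502136 to 49798925 of chromosome 9 on the minus strand (GRCm38/mm10). From cell 1 to cell 9 its counts were 0, 10, 9, 1, 20, 4, 8, 6 and 11 molecules. Its level was 4.55 to 14.0 per 10000 in 7 cells, all with overlapping intervals, and 0.832 in cell 4 (interval 0.0211 to 4.63). The interval of cell 9, 7.02 to 25.2, did not overlap that of cell 4. An antisense gene, Gm11149, overlaps its exons, and reads of the pair cannot be told apart without the strand of counting. Ncam2, the paralog known from olfactory axons, had 2 molecules each in cells 2 and 3.

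SynCAMs had 63 molecules, 41 of them from Cadm1. This gene, for an immunoglobulin protein that binds other SynCAMs across the synapse, spans 47530173 to 47857637 of chromosome 9 on the plus strand and was the only adhesion gene in all 9 cells. In cell order its counts were 1, 2, 5, 3, 11, 2, 10, 2 and 5 molecules. Cell 7 was highest among the deeper cells at 14.0 per 10000 (6.70 to 25.7), and its interval did not overlap that of cell 8, at 1.52 (0.184 to 5.48). Cell 7 is also the cell with 70 endothelial-marker molecules, whose part was not tested. Cadm3 had 11 molecules, 0, 0, 3, 0, 1, 3, 2, 0 and 2 in cell order, and was highest in the shallow cell 6. It spans 173333258 to 173367695 of chromosome 1 on the minus strand. Its exons overlap those of Ackr1 on the same strand. Cadm2 had 7 molecules, in cells 2, 5 and 6, and Cadm4 had 2 each in cells 5 and 9.

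Among the IgLONs, small lipid-anchored immunoglobulin proteins that pair with each other, Ntm led with 41 of 67 molecules. Ntm encodes neurotrimin and spans 28994750 to 29963141 of chromosome 9 on the minus strand. Its counts over cells 1 to 9 were 4, 1, 9, 0, 16, 4, 6, 1 and 0 molecules. The gene was therefore low or at 0 in cells 2, 4, 8 and 9, at 1.05 per 10000 or under, and between 6.05 and 39.2 in the other 5 cells. The intervals of cells 3 (3.83 to 15.9) and 5 (3.46 to 9.82) lay above that of cell 4, which reached 3.07. Of these 4 low cells, cells 2 and 9 had Ncam1 levels of 10.4 and 14.0, and cells 4 and 8 had the lowest Ncam1 levels above 0, 0.832 and 4.55.

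Negr1, a further IgLON at 156561794 to 157316445 of chromosome 3 (plus strand), had 14 molecules, which were 0, 1, 3, 0, 4, 0, 1, 1 and 4 in cell order. Cells 5 and 9 thus shared the highest count. Lsamp, the limbic system-associated membrane protein, had 8 molecules, of which cell 2 held 4. Opcml had 4 molecules in 3 cells. All 4 IgLON genes of the set were thus detected, and cell 4 held no molecule of them.

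Among the neurexin genes, Nrxn2 and Nrxn3 had 21 molecules each, and both were detected in at least 5 cells. Nrxn2, at 6418731 to 6544169 of chromosome 19 (plus strand), gave 0, 1, 7, 0, 2, 2, 0, 1 and 8 molecules in cells 1 to 9, with the high counts in cells 3 and 9. Cell 9, at 10.2 per 10000 (4.41 to 20.1), lay above cells 5 (0.756, interval 0.0915 to 2.73), 8 (0.759, 0.0192 to 4.23) and 4 (0, up to 3.07) without overlap.

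Nrxn3, at 88722876 to 90334935 of chromosome 12 (plus strand), gave 1, 8, 1, 1, 5, 1, 0, 3 and 1 molecules in cell order. Cell 2, at 8.36 per 10000 (3.61 to 16.5), was highest among the deeper cells, and its interval overlapped those of the others. Of the pair, Nrxn2 therefore had the higher count in cells 3, 6 and 9, and Nrxn3 in cells 1, 2, 4, 5 and 8. Neurexin genes have separate starts for long alpha and short beta forms, and 1 row a gene does not separate them. Antisense or opposite-strand genes overlap exons of Nrxn2 and Nrxn3, among them the protein-coding Slc22a12 at Nrxn2.

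**Figure D4:**
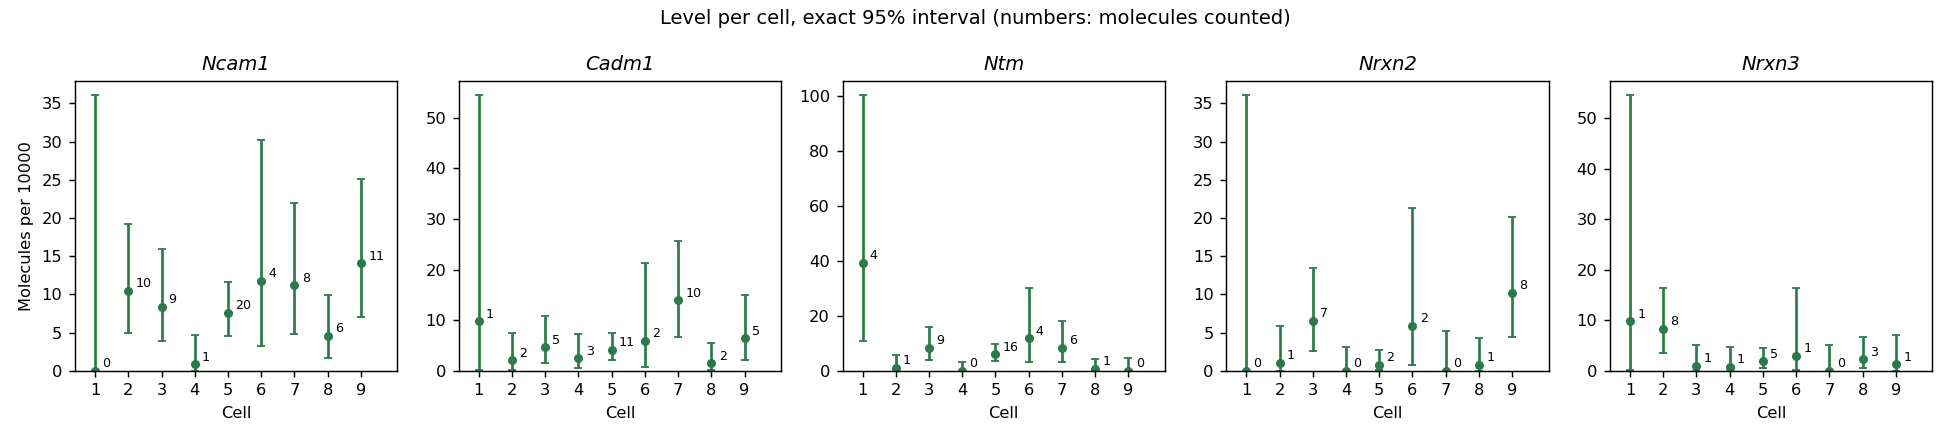
Levels of Ncam1, Cadm1, Ntm, Nrxn2 and Nrxn3, each with at least 20 molecules in all, in each cell, in molecules per 10000 gene molecules with exact 95% intervals and the molecules counted beside each point. The vertical scales differ between panels, and cell 1 has the widest interval in each. Nrxn2 has its highest level in cell 9, 10.2, and Ntm is at 0 in cells 4 and 9.

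Neuroligins and LRRTMs are postsynaptic partners of neurexins. Neuroligins had 4 molecules in all. Nlgn1 gave 1 (cell 1), Nlgn2 gave 2 (cells 7 and 9) and Nlgn3 gave 1 (cell 8). The LRRTMs had 21, of which Lrrtm3 gave 13, namely 2, 3, 1, 0, 0, 0, 0, 0 and 7 in cell order. Its level in cell 9, 8.94 per 10000 (3.60 to 18.4), lay above the limits of the intervals of cells 5 and 8, which held none and reached 1.39 and 2.80. Lrrtm3 spans 63928472 to 64090277 of chromosome 10 on the minus strand. Lrrtm2 had 6 molecules in 3 cells, and Lrrtm1 had 2 in cell 5. The netrin-G ligand genes had 3 molecules, 1 each of Lrrc4 and Lrrc4c in cell 2 and 1 of Lrrc4b in cell 5.

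Slitrk genes, for postsynaptic proteins that bind receptor phosphatases, had 16 molecules. Slitrk4 had 6 (4 in cell 5), Slitrk2 had 5 (4 in cell 2), Slitrk1 had 4 and Slitrk6 had 1. Teneurins, large proteins that bind latrophilins, had 8 molecules: 4 of Tenm3, 3 of Tenm4 and 1 of Tenm1, with at most 2 in any cell.

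Genes of the axon and its nodes were detected at low counts. Nfasc, the neurofascin gene at 132564690 to 132741797 of chromosome 1 (minus strand), had 13 molecules, which were 2, 0, 1, 0, 7, 1, 0, 0 and 2 in cell order. L1cam had 7, of which 4 lay in cell 9, and Nrcam had 1 each in cells 2 and 5. Cntn1, the contactin that pairs with contactin-associated proteins and spans 92051165 to 92341967 of chromosome 15 on the plus strand, had 10 molecules in 7 cells. In cell order they were 0, 1, 1, 0, 3, 1, 1, 1 and 2. Cntn2 had 3 molecules in cell 5 and 1 in cell 8, Cntn4 had 4 in 3 cells and Cntn6 had 3 in 3 cells.

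Contactin-associated genes had 13 molecules, 5 of Cntnap1, 4 of Cntnap2, 2 of Cntnap5b and 1 each of Cntnap3 and Cntnap4. Neurofascin and contactin 2 are also made by oligodendrocytes. Cell 5, where both were highest by count, held all 35 molecules of Mbp and all 26 of Mog, genes of myelin. It is also the deepest cell and has the most neuron-marker molecules, 222. Its Nfasc level, 2.645 per 10000, was near the 2.947 of cell 6 and the 2.555 of cell 9. Those cells had 0 and 2 oligodendrocyte-marker molecules. Cell 1 was higher, at 19.59 from 2 molecules, and cell 3 lower, at 0.932. Cells 2, 4, 7 and 8 had no Nfasc molecule. The Cntn2 level was 1.134 in cell 5 and 0.759 in cell 8. What part oligodendrocytes have in the counts was not tested.

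Cadherins, the calcium-dependent adhesion proteins, had 36 molecules from 7 of 22 genes. Cdh13, a lipid-anchored cadherin at 118283733 to 119324921 of chromosome 8 (plus strand), had 13, of which cell 5 held 9, cell 2 held 3 and cell 9 held 1. It was at 0 in the other 6 cells. Cdh2, the gene of N-cadherin at 16588877 to 16809246 of chromosome 18 (minus strand), had 12 molecules with another distribution, 0, 2, 0, 3, 0, 2, 1, 3 and 1 in cell order. Cell 5, the deepest, allowed at most 1.39 per 10000 by its interval, where cells 4 and 8 were at 2.50 and 2.28 with intervals that overlapped it. Cells 4 and 8 are those with the blood, endothelial and ependymal markers given above, whose part was not tested. Per 10000 molecules Cdh2 was highest in cell 6, at 5.89 from 2 molecules. Cdh4, Cdh7 and Cdh8 had 3 molecules each, and Cdh10 and Cdh18 had 1.

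Of the Lrrc40 to Lrrc49 symbols, 7 of 9 were detected with 25 molecules. Lrrc49 had 5 in cell 2 and 3 in cell 5, Lrrc42 had 4 in cell 9 and 1 in cell 8, Lrrc45 had 4, Lrrc41 had 2 and Lrrc40 had 1. Lrrc48, a gene of the dynein regulatory complex of motile cilia, had 3 molecules and Lrrc46 had 2, all in cell 8. That cell held 121 of the 125 ependymal-marker molecules, and ependymal cells carry motile cilia; what part such cells have in these counts was not tested. Without the Lrrc40 to Lrrc49 symbols the adhesion genes detected in any cell were 48 of 71, those in at least 5 cells were 11, and the level of cell 8 was 20.5 per 10000.

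**Figure D5:**
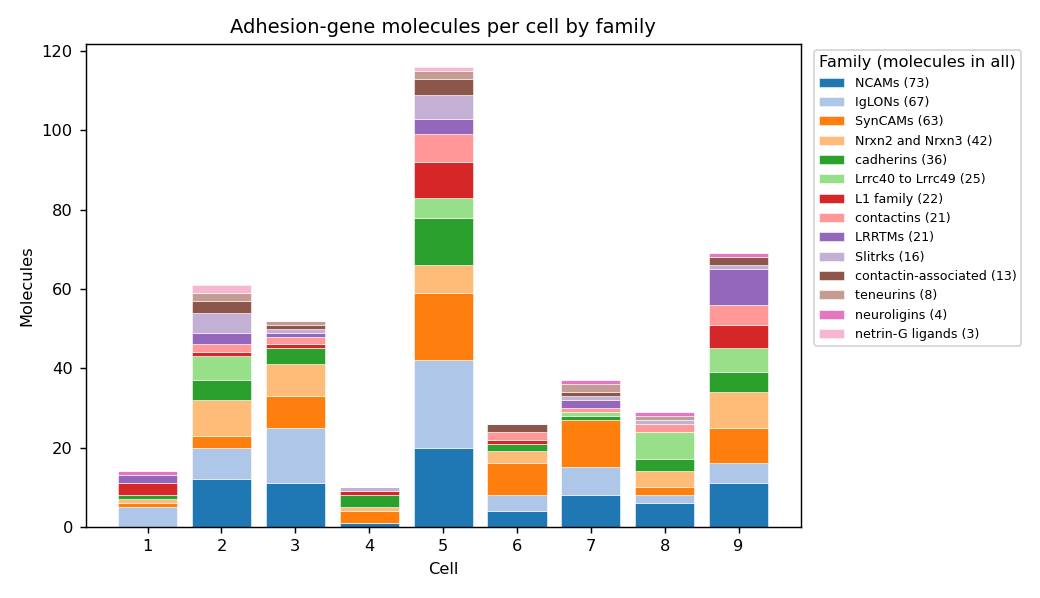
Stacked bars give the molecules of each family in each cell, with Nrxn2 and Nrxn3 for the neurexins, on a linear scale from 0 and with the molecules over all cells in the legend. NCAMs, IgLONs, SynCAMs and the Nrxn2 and Nrxn3 pair had 73, 67, 63 and 42 molecules, and cell 5, the deepest cell, has the tallest bar at 116.

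Counts of different genes were also set against transcript length, since the sources used here do not say how the molecule counts depend on length. Per kilobase of the longest coding GENCODE transcript, Ntm led with 13.6 molecules, followed by Ncam1 with 10.5 and Cadm1 with 9.15. The other 10 genes with at least 10 molecules lay between 1.34 (Nfasc) and 3.43 (Cdh13). The same 3 genes were highest by both measures and together gave 34.5% of the adhesion molecules.

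Known partners of these proteins, with scaffolds, catenins and processing genes, were taken as lists. To these were added 71 protocadherins and 16 other adhesion genes, which are further adhesion families and not partners as such. The lists held 168 genes in all, called partner genes here for short. Of these, 20 (11.9%, against 7.00% of all symbols) reached at least 5 cells. Another 72 were seen in fewer and 76 in none, where 58.6% of all symbols were in none. The count of 20 depended on single cells. With 5 cells still required it was 10 without cell 3, 10 without cell 5, 11 without cell 2 and 12 without cell 9. The 7.00% holds for all 9 cells, and no share of all symbols is given with a cell left out. At 2 or more molecules 5 of the 168 reached at least 5 cells, where 2.63% of all symbols did. Among trans partners, such as latrophilins, receptor phosphatases and calsyntenins, 5 of 40 were in at least 5 cells (Lphn1, Lphn2, Ptprd, Ptprf and Ntrk3). The genes with most molecules there were Clstn3, with 17 each in cells 5 and 9, 2 in cell 7 and 1 in cell 3, Ptprs with 23 in 4 cells and Ptprd with 14 in 5 cells. Among scaffolds, 3 of 21 were in at least 5 cells (Magi1, Gphn and Ank3). Ank3, the ankyrin that anchors neurofascin at the initial segment, had 38 molecules in 8 cells, Gphn, the gephyrin of inhibitory synapses, had 13 in 6 cells, and Ank2 had 10 in 4 cells.

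A list of 9 genes held catenins, which link cadherins to actin, and the nectin-binding afadin. Of these, 3 (33.3%, against 7.00% of all symbols) were in at least 5 cells. The catenin Ctnnb1 had 23 molecules in 7 cells, the catenin Ctnnd2 had 6 in 5 cells, and Mllt4, the afadin gene, had 9 in 5 cells. Of 71 protocadherins, 6 were in at least 5 cells (8.45%, near the 7.00% of all symbols). The 6 were Pcdh7, Pcdh9, Pcdh15, Pcdh17, Pcdha5 and Pcdhgb4. Another 50 of the 71 were in none, where 58.6% of all symbols were in none. Pcdh17 had 38 molecules in 7 cells, 12 of them in cell 2 and 11 in cell 5, and Pcdh7 and Pcdh9 had 16 each in 7 cells. Of 11 genes for shedding proteases and polysialylation, Psenen alone (9.09% of the list) was in at least 5 cells, with 19 molecules in 6. St8sia4, a polysialyltransferase that acts on NCAM, had 9 molecules, of which cell 4 held 5, cell 3 held 2 and cell 5 held 2. Adam10, a shedding protease, had 5 molecules in 3 cells. Of 16 other adhesion genes, most of them for immunoglobulin proteins, 2 (12.5%) were in at least 5 cells. These were Astn1 and Ptprz1, whose proteins are not of the immunoglobulin kind. Alcam had 24 molecules in 4 cells, Chl1, the close relative of L1, had 15 in 4 cells, and Ptprz1 had 10 in 5 cells.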

How the data were processed

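Per the labels' protocols, tissue was cut from slices of 300 µm and dissociated with papain, single cells were loaded on a C1 chip, spike-in RNA was added at lysis, and cDNA was amplified for 21 cycles. The submitters' processing notes name mm10 and Bowtie, with no version. The sources used here do not say how reads were collapsed, on which strand or with which annotation they were counted. The file the authors deposited holds whole-number counts, named as molecules, for 24378 gene rows and 92 spike-ins in 9 cells, and 0 columns had no sample.

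Rows of a symbol with several loci were reduced to the largest in each cell; no adhesion gene had several. Each cell's total was the sum of all its gene rows. Positions were taken from GENCODE M21 (GRCm38), in which all 80 symbols were matched, older ones through RefSeq synonyms. A gene was detected with at least 1 molecule. Values in every cell are given for genes with at least 10 molecules or in at least 5 cells, other detected genes by their counts, and the 3 partner genes with most molecules of each list are named; genes in at least 5 cells of a partner list are named beyond that rule, after their values were seen. A member and a marker gene are not reported singly here and stay in the sums. The genes and lists were chosen with earlier results of these data known. Thinning used the exact hypergeometric expectation and, with the Poisson intervals, was tested on simulated data. Alternatives were stricter detection, thinning, other totals, summed loci and left-out cells. Computation used scipy 1.17.1, pandas 2.3.3 and numpy 2.4.6 under Python 3.11.15, and figures were drawn with matplotlib 3.10.9.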

Additional observations from a re-analysis of the deposited data

Results flagged for a closer look

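Of 30 measures given for all 9 cells, 10 had an extreme cell whose distance from its neighbour, as a share of the range, exceeded Dixon's 95% critical value. Chance flags about 1 in 20 for independent, normally distributed values; these levels rest on small counts at unequal depth and some measures overlap, so the 10 are not set against that rate. In 6 of them the far cell was cell 1, where 1 molecule is a level of 9.79 per 10000: Ntm at 39.2, Lrrtm3 at 19.6, Nfasc at 19.6, the neuroligins at 9.79, the L1 family at 29.4 and the IgLONs at 49.0. These rest on 4, 2, 2, 1, 3 and 5 molecules. In cell 6, Cadm3 was at 8.84 and Cdh2 at 5.89, from 3 and 2 molecules. In cell 2, the netrin-G ligands were at 2.09 and the Slitrks at 5.22, from 2 and 5 molecules. The summed level and the number of genes detected were not among the 10.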

How the results depend on the processing

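The 11 adhesion genes in at least 5 cells were 4 when detection required 2 or more molecules and 4 at 3 or more, and an expected 4.18 after thinning to 3393 molecules without cell 1. Of these counts only the first 4 (5.00% of the set) has a share of all symbols beside it, 2.63%. For the 55 detected in any cell, no share of all symbols is given at a stricter threshold. They were 36 at 2 or more molecules and 22 at 3 or more. The 20 partner genes in at least 5 cells were 5 and 4 at these settings, and with 1 cell left out and 5 cells still required they ranged from 10 to 19; they were 11 without cell 2, 10 without cell 3, 10 without cell 5 and 12 without cell 9. The median summed level of 57.3 per 10000 was 82.5 without cells 4, 5, 7 and 8, where cells 1 and 6, the shallowest, are 2 of the 5 left. Per 1000 spike-in molecules it was 19.8, a different unit. Without cells 4, 5, 7 and 8, 15 adhesion genes were in at least 3 of 5 cells. This is another criterion than 5 of 9 cells, so the 15 is not set against the 11. Under alternatives 99 values were recomputed, 59 of them for the main counts and the median level. Of the 59, 46 stayed within 1.5 times the count or, for the level, within the counting interval. These 46 include the 15, which rests on another criterion. The other 40 were for families and single genes and are not summarised by this rule. With at most 20 molecules of any gene in a cell, depth limits every statement on single genes. No paired analysis was possible because the labels give 1 group.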

Other observations

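Of the 438 adhesion molecules, 231 (52.7%) lay in cells 1, 2, 3, 6 and 9, each with at most 7 molecules of any marker list of another cell type. Together those cells held 35.6% of all gene molecules. Cells 1 and 6 held only 1021 and 3393 gene molecules, with 1 and 7 neuron-marker molecules, so few molecules of any marker could be counted there. The share of each family in cells 1, 2, 3, 6 and 9 ran from 37.5% for the teneurins (3 of 8 molecules) and 43.8% for the Slitrks (7 of 16) to 71.4% for the LRRTMs (15 of 21). It was 53.7% for the IgLONs (36 of 67), 52.1% for the NCAMs (38 of 73) and 46.0% for the SynCAMs (29 of 63). No intervals are given for these shares. These cells were set apart by markers seen in the same data, and no test was made.

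A few partner genes had many of their molecules in 1 cell. Pcdh19, a protocadherin, had its 8 molecules in cell 5 alone, and Mdga2, which binds neuroligins, had 8 of its 10 in cell 7. Dlg4, the gene of the postsynaptic scaffold PSD-95, had 6 of its 9 in cell 9. Clstn3 had 17 of its 37 in that cell and another 17 in cell 5, so it was not held to 1 cell. These genes were chosen after their values were seen.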
